A study of Mus musculus with 6 samples.

Results

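The genes described here encode the ligands and receptors of adrenomedullin and of vascular endothelial growth factor (VEGF) signalling. Mouse gene symbols were chosen by name and matched to the Ensembl gene identifiers in the count files, which gave 10 of the 50686 genes counted. The ligands were Adm, Vegfa, Vegfb and Vegfc, the receptors were Calcrl, Ramp2, Flt1 and Kdr, and the co-receptors were Nrp1 and Nrp2. RNA was sequenced from mouse induced pluripotent stem cells (iPSCs) that had been reprogrammed from gingival fibroblasts, grown on SNL feeder cells and separated from the feeders by selective trypsinization. The cells were formed into embryoid bodies, exposed to retinoic acid and moved to gelatin-coated dishes in both groups. The study used retinoic acid to steer them toward immature mesenchymal cells. The ICF group then received intermittent compressive force of 1.5 g/cm2 at 0.23 Hz for 24 h in serum-free medium. The control group was kept without force for the same 24 h, and the study's methods do not name its medium separately. Each group held 3 samples, and the labels number the donors 1 to 3 in both groups, so that a control and an ICF sample of the same number form a pair by label. The question asked of the data was how the RNA of these ligands and receptors differed between force-treated and unloaded cells.

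Adrenomedullin is a secreted peptide of the calcitonin family that widens blood vessels and stabilizes the vessel wall. Its receptor is formed when the calcitonin receptor-like receptor, encoded by Calcrl, pairs with the accessory protein RAMP2, and loss of any of these genes in the mouse disturbs vascular development. VEGF-A drives endothelial growth and vessel sprouting through the tyrosine kinase receptor VEGFR2, encoded by Kdr, while VEGFR1, encoded by Flt1, binds VEGF-A and VEGF-B and limits the amount that reaches VEGFR2. VEGF-C acts mainly on lymphatic endothelium, and the neuropilins NRP1 and NRP2 bind both VEGFs and class 3 semaphorins. Adm and Vegfa are also textbook targets of the hypoxia-inducible factors (HIFs), which bind DNA at a short core in which ACGTG or GCGTG is read.

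The libraries held between 28711166 and 34194413 reads counted on genes. Counts in the library of ICF replicate 3 came in steps, with 89.0% of its non-zero values divisible by 4 against 20.3% to 21.5% elsewhere, and 20802 genes had a count, against 24340 to 24889. Of the 10 genes, 8 had a multiple of 4 there. Levels are given as CPM, the number of a gene's reads per 1000000 reads counted in its library, with library totals scaled by the TMM method. Differences are log2 fold changes of ICF over control from edgeR's quasi-likelihood test, with standard errors (SE) that come from the SDs of log2 CPM in the 2 groups. P-values were adjusted over the 16729 genes that passed a filter on low counts, and a gene was called at an adjusted p under 0.05. The exact two-sided permutation test of 3 against 3 samples cannot go below 0.1 and therefore could not reach the threshold for any single gene. The labelled cell type was supported by high RNA of pluripotency genes in both groups, with Pou5f1 at 841 ± 57.2 CPM (SD, n = 3) in control and 817 ± 70.4 CPM (SD, n = 3) in ICF samples.

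All 10 genes passed the filter on low counts. Adm and Vegfa were lower with ICF and Nrp1 was higher, and the other 7 genes did not pass the test. The 2 lower genes of 10 stand beside 4.38% of all tested genes called lower, and the 1 higher gene beside 3.47% called higher. Every ICF sample lay below every control sample for 3 genes (Adm, Vegfa and Flt1), against 15.7% of all genes tested. For 1 gene (Nrp1) every ICF sample lay above every control, against 15.6% of all genes. The ranges of the groups overlapped for the remaining 6. When samples of the same donor number were compared within pairs, 5 genes were called lower (Adm, Vegfa, Vegfb, Ramp2 and Flt1) and 1 higher (Nrp1), beside 15.3% and 14.6% of all genes called lower and higher in that fit. In bulk RNA of this kind, fewer cells of a type and less RNA per cell cannot be told apart.

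**Figure D1:**
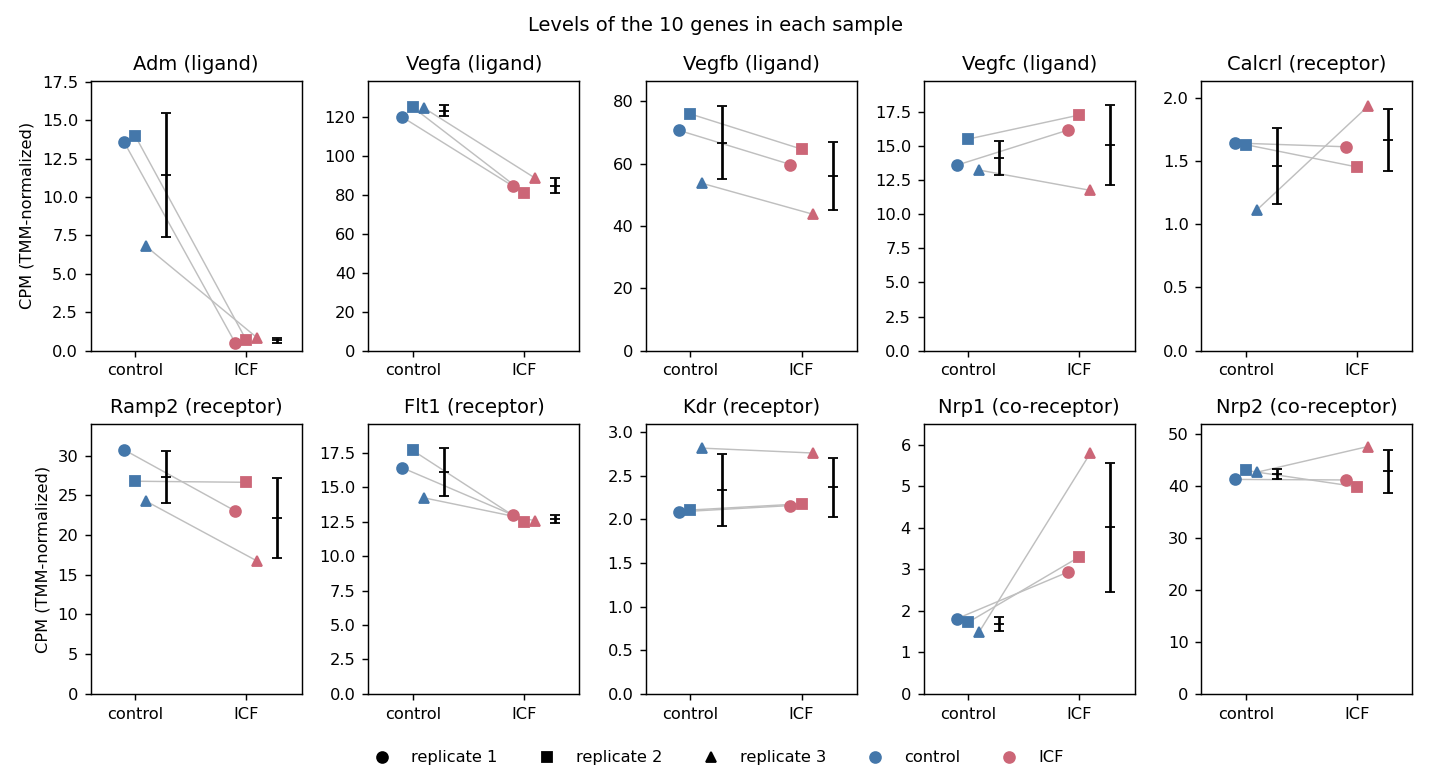
RNA level of the 10 genes in each sample, in CPM on a separate linear axis per gene that starts at 0, with control and ICF samples as points, grey lines between samples of the same donor number, and the mean with SD of each group (n = 3). The ICF points of Adm lie at 0.518 to 0.828 CPM against 6.78 to 14.0 CPM in control, those of Vegfa and Flt1 also lie below all controls, and those of Nrp1 lie above them.

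The DNA just before the RefSeq start of the 3 called genes and of Flt1 is shown so that the letters of the HIF core can be seen in genes that moved apart. The sequences are RefSeq's 250 bases before the start in build GRCm38.p6, 5′ to 3′ on the strand of the gene, and capitals mark ACGTG or GCGTG on either strand (CACGT or CACGC where the core is on the opposite strand).
Adm, chr7:110627407-110627656, plus strand: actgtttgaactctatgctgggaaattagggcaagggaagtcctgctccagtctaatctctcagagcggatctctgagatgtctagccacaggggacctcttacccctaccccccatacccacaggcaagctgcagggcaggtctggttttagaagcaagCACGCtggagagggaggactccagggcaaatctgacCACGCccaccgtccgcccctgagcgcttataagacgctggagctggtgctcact
Vegfa, chr17:46032378-46032627, minus strand: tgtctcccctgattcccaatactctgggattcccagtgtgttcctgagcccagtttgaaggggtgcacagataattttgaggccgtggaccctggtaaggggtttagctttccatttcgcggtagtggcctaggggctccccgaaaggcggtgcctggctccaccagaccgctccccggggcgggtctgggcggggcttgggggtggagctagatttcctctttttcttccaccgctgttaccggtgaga
Nrp1, chr8:128358823-128359072, plus strand: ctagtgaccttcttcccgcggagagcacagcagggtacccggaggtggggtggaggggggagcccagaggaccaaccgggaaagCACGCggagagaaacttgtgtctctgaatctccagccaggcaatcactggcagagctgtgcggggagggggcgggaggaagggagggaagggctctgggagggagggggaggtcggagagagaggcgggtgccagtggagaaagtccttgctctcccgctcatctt
Flt1, chr5:147726012-147726261, minus strand: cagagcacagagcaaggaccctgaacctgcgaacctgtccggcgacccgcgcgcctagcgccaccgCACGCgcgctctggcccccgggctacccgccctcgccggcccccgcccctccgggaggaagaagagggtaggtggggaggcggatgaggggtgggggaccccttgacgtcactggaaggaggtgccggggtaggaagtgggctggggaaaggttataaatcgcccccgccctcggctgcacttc

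Adm held GCGTG at 2 places, Nrp1 and Flt1 at 1 place each, and the Vegfa window held neither core. Kdr, Nrp2 and Vegfb, whose windows are not shown, also held GCGTG at 2 places each, and none of them was called in the unpaired fit. The Nrp1 window lies inside the longer gene model of GENCODE, after the outermost start that is given below for Nrp1, and describes the RefSeq start only. A further RefSeq start of Vegfa, inside the gene, had 1 ACGTG and 1 GCGTG before it. Of the 300 bases around that start, 218 lay in annotated exons of Vegfa and 67 in coding sequence. No GENCODE transcript of Vegfa started within 50 bases of it, and this window is among the 7 with a core counted next. Of the 10 windows that RefSeq gave for 9 of the 10 genes, 7 held at least 1 core, while 38.6% of 32851 mouse promoter windows of the same length did (16.6% ACGTG, 28.2% GCGTG). A match describes letters only.

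Adm (chr7:110627661-110629820, plus strand, GRCm38) was the gene with the steepest fall of the group. It was counted at 13.6, 14.0 and 6.78 CPM in control replicates 1 to 3 and at 0.518, 0.696 and 0.828 CPM in the ICF replicates. These values rest on 397, 438 and 195 reads in control and on 18, 23 and 24 reads in ICF samples. The count of 24 is that of ICF replicate 3, the library with counts in steps of 4. The groups did not overlap, and the lowest control was still several times the highest ICF sample. The mean fell from 11.5 ± 4.05 to 0.681 ± 0.156 CPM (SD, n = 3), which is 16.8-fold lower (log2 fold change −4.08, SE 0.39, edgeR adjusted p = 0.00054). Only 4 of the 16729 tested genes had a lower log2 fold change. The call held when any 1 library was left out, with log2 fold changes between −4.35 and −3.90.

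Vegfa (chr17:46016993-46032369, minus strand), the main angiogenic ligand, was expressed far above Adm in read counts and fell by less. Control samples held 120.1, 125.0 and 124.6 CPM, and ICF samples held 84.5, 81.1 and 88.6 CPM. Both groups were tight, and a wide gap separated them. The mean was 123 ± 2.71 CPM in control and 84.8 ± 3.76 CPM with ICF (SD, n = 3), a 1.45-fold lower level (log2 fold change −0.54, SE 0.04, edgeR adjusted p = 0.0017). In CPM the loss was larger for Vegfa, at −38.5 CPM, than for Adm, at −10.8 CPM, although the fold change of Adm was the larger one. Leaving out any 1 library kept the call, with log2 fold changes of −0.57 to −0.50.

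Vegfb (chr19:6982473-6987651, minus strand) encodes a ligand of VEGFR1 that is known for effects on heart and fat tissue more than on sprouting. Its level was 70.7, 76.0 and 53.7 CPM in control and 59.7, 64.7 and 43.8 CPM in ICF replicates 1 to 3. The groups overlapped because replicate 3 was low in both, and within each pair the ICF sample was lower, by −0.24, −0.23 and −0.29 on the log2 scale. Without pairing the difference did not pass (log2 fold change −0.25, SE 0.23, edgeR adjusted p = 0.37), and with the donor number as a block it did (edgeR adjusted p = 0.0008). Without ICF replicate 3 the unpaired log2 fold change was −0.10.

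Vegfc (chr8:54077606-54187096, plus strand), the lymphatic ligand, did not pass in either fit. It was counted at 13.6, 15.5 and 13.2 CPM in control and at 16.2, 17.3 and 11.7 CPM in ICF samples, with the highest and the lowest value both in the ICF group. The log2 fold change was 0.10 (SE 0.19, edgeR adjusted p = 0.73). Summed over Vegfa, Vegfb and Vegfc, the VEGF ligands amounted to 204.1 ± 12.4 CPM in control and 155.9 ± 10.2 CPM in ICF samples (SD, n = 3). Vegfa made up 60.5% ± 3.95 and 54.6% ± 6.10 of these sums. The sums and shares are of reads not corrected for length, so they compare the groups and not the ligands. Per kilobase of exon, Vegfb lay above Vegfa in both groups (41.6 against 28.8 CPM in control and 34.9 against 19.8 CPM with ICF).

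The receptor genes of adrenomedullin did not pass the unpaired test. Calcrl (chr2:84330626-84425411, minus strand), the receptor subunit that pairs with RAMP2, was scarce. It held 1.64, 1.63 and 1.11 CPM in control and 1.61, 1.45 and 1.93 CPM in ICF samples, on 32 to 56 reads per library. The groups overlapped, and the log2 fold change was 0.18 (SE 0.22, edgeR adjusted p = 0.67).

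Ramp2 (chr11:101246028-101259546, plus strand), the accessory protein that makes Calcrl an adrenomedullin receptor, held 30.7, 26.8 and 24.2 CPM in control and 23.0, 26.6 and 16.7 CPM in ICF samples. ICF replicate 2 lay within the control range, so the groups overlapped. The log2 fold change was −0.30 (SE 0.22, edgeR adjusted p = 0.29), and with the donor number as a block the gene passed (edgeR adjusted p = 0.004), with differences of −0.42, −0.01 and −0.54 within pairs 1 to 3. Without ICF replicate 3 the unpaired log2 fold change was −0.13 (edgeR adjusted p = 0.52). Ramp2 is uncertain as a count, since 33.4% of its exon bases lie in exons of Vps25 on the same strand and 73.3% of the 75-base stretches of its longest annotated transcript also occur in Vps25 transcripts. Vps25 itself, an endosomal sorting gene, was counted at 0.665 ± 0.134 CPM in control and 0.682 ± 0.0144 CPM in ICF samples (SD, n = 3).

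Among the VEGF receptors, Flt1 had separate groups and Kdr did not. Flt1 (chr5:147561604-147726011, minus strand), the decoy-like receptor for VEGF-A and VEGF-B, was counted at 16.4, 17.7 and 14.2 CPM in control and at 13.0, 12.4 and 12.6 CPM in ICF samples. Every ICF sample lay below every control, but the spread between the controls was wide for the size of the difference. The log2 fold change was −0.35 (SE 0.09), which missed the threshold in the unpaired fit (edgeR adjusted p = 0.076) and passed with the donor number as a block (edgeR adjusted p = 0.0036). DESeq2 on the same samples also called it (adjusted p = 0.041). Leaving out 1 library at a time gave −0.43 to −0.28 and a call in 1 of the 6 fits.

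Kdr (chr5:75932827-75978458, minus strand), the main signalling receptor of VEGF-A on endothelium, was low. Control replicates 1 to 3 held 2.09, 2.11 and 2.82 CPM, and the ICF replicates held 2.16, 2.18 and 2.76 CPM. Replicate 3 was highest in both groups, and the difference within pairs was small beside the spread between them. The log2 fold change was 0.02 (SE 0.18, edgeR adjusted p = 0.97).

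The co-receptors went different ways. Nrp1 (chr8:128358604-128503363, plus strand), a co-receptor for VEGF-A and a receptor for semaphorin 3A, rose from 1.81, 1.72 and 1.50 CPM in control to 2.94, 3.30 and 5.80 CPM with ICF. These values rest on 43 to 54 reads in control and on 102, 109 and 168 reads in ICF samples. All 3 ICF samples lay above all controls, and ICF replicate 3, the library with counts in steps of 4, was well above the other ICF samples. The mean was 2.39-fold higher (1.68 ± 0.164 against 4.01 ± 1.56 CPM, SD, n = 3, log2 fold change 1.25, SE 0.31, edgeR adjusted p = 0.03). Without ICF replicate 3 the log2 fold change was 0.90 (edgeR adjusted p = 0.017). The call was lost without control replicate 1, 2 or 3 in turn (edgeR adjusted p = 0.10, 0.12 and 0.055), while the log2 fold change stayed at 1.17 or above in those fits.

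Nrp2 (chr1:62703285-62818695, plus strand), the co-receptor that also serves VEGF-C and semaphorin 3F, held 41.3, 43.1 and 42.7 CPM in control and 41.2, 39.9 and 47.7 CPM in ICF samples. The ICF values lay on both sides of the controls. The log2 fold change was 0.02 (SE 0.08, edgeR adjusted p = 0.91), the narrowest error among the genes that did not pass.

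Set by role, 2 of 4 ligands were lower and none was higher, with a median log2 fold change of −0.40. None of the 4 receptors was called, and their log2 fold changes lay between −0.35 and 0.18 with a median of −0.14. Of the 2 co-receptors, 1 was higher. The median log2 fold change of all 16729 genes was 0.00. Since the genes were picked by name with results known, these medians are descriptions without a test.

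**Figure D2:**
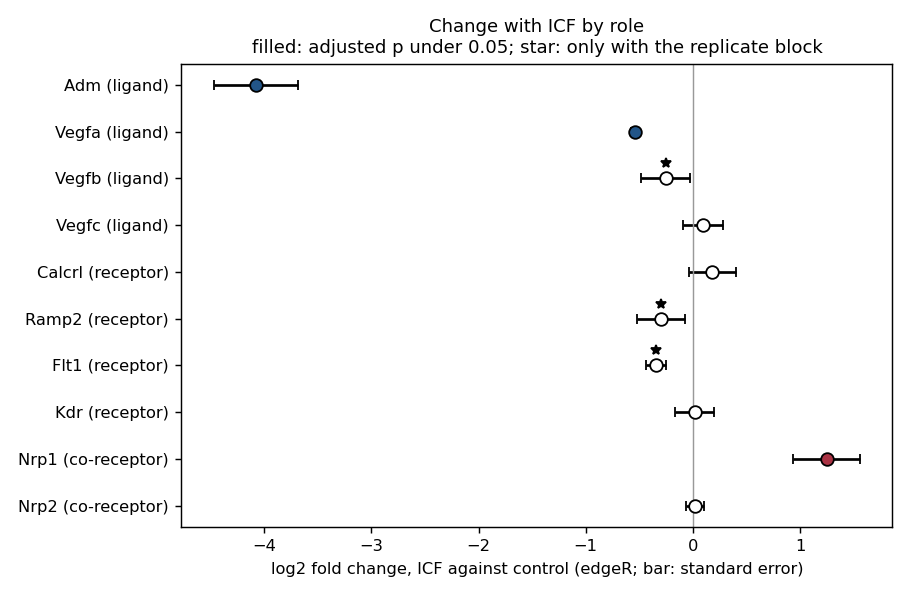
Log2 fold change of ICF over control for each gene, grouped as ligands, receptors and co-receptors, with bars of 1 SE. Filled points passed edgeR's test at an adjusted p under 0.05, and stars mark genes that passed only with the donor number as a block. Adm lies at −4.08 and Nrp1 at 1.25, while the 4 receptors lie between −0.35 and 0.18.

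A ratio of ligand to receptor reads within a library is free of the scaling between libraries. For every Calcrl read there were 8.27, 8.59 and 6.09 Adm reads in control and 0.321, 0.479 and 0.429 in ICF samples, so that each control held many more Adm reads per Calcrl read than any ICF sample. Reads grow with exon length, so these ratios compare the groups and do not say which of the 2 genes had more RNA, and per length the ICF ranges of Adm and Calcrl overlapped. The log2 ratio of Adm to Calcrl moved from 2.90 to −1.29, a difference of −4.19 (SE 0.23), and that of Adm to Ramp2 from −1.32 to −4.99, a difference of −3.67 (SE 0.44). The ratio of Vegfa to Flt1 moved less, from 2.94 to 2.74, a difference of −0.20 (SE 0.10) (the mean of Flt1 was also lower with ICF). The ratio of Vegfa to Kdr went from 5.72 to 5.16, a difference of −0.56 (SE 0.16). All 4 of these ratios were lower in every ICF sample than in any control.

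Other pairs overlapped between groups. The log2 ratio of Vegfb to Flt1 differed by 0.08 (SE 0.18), that of Vegfc to Kdr by 0.06 (SE 0.34), and that of Flt1 to Kdr by −0.36 (SE 0.26). Against Nrp1 the groups did not overlap: the log2 ratio of Vegfa to Nrp1 went from 6.19 to 4.46, a difference of −1.73 (SE 0.29), and that of Nrp2 to Nrp1 differed by −1.17 (SE 0.25).

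**Figure D3:**
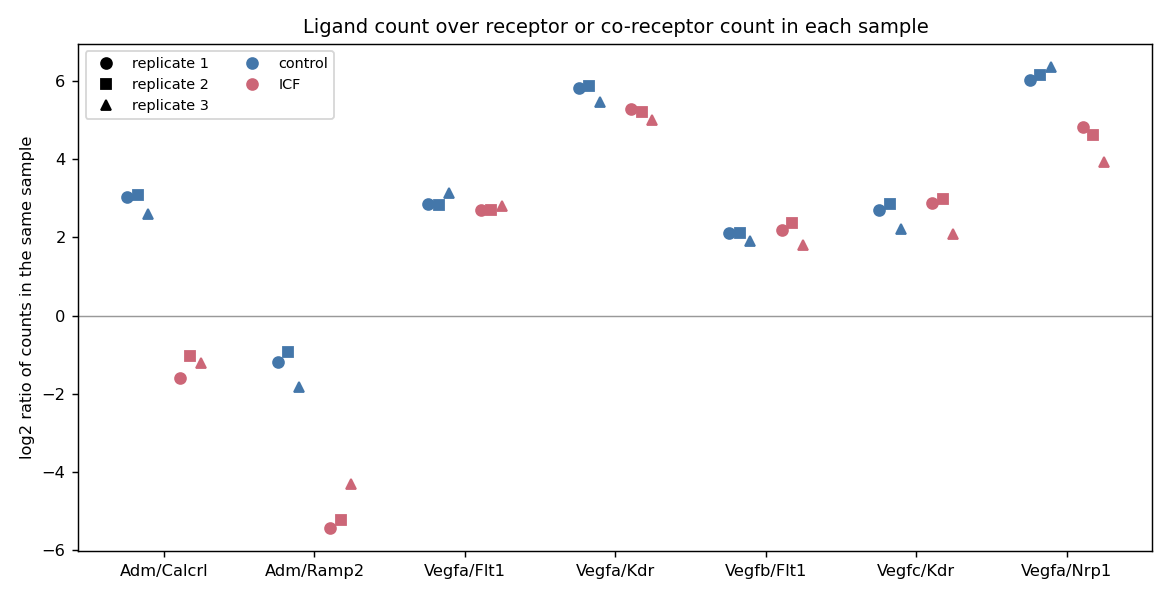
Log2 ratio of ligand to receptor read counts within each library (0.5 added to each count), as points for the control and ICF samples, with a line at 0 where read counts, not corrected for length, are equal. The ratio of Adm to Calcrl drops from a mean of 2.90 to −1.29, while the groups overlap for Vegfb to Flt1 and Vegfc to Kdr.

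Levels can be compared between genes only per length, so CPM were divided by the kilobases of merged exons. Merged exons can exceed any 1 transcript. They held 9785 bases for Nrp1, against 3645 in its longest annotated transcript, but 4882 in both for Calcrl. An order per transcript was not computed, so the one below holds only on the scale of merged exons. On that scale the order in control was Vegfb (41.6 ± 7.23 CPM per kb), Vegfa (28.8 ± 0.632), Ramp2 (8.25 ± 0.989), Adm (7.07 ± 2.50), Vegfc (5.76 ± 0.498), Nrp2 (3.58 ± 0.077), Flt1 (1.19 ± 0.129), Calcrl (0.299 ± 0.062), Kdr (0.259 ± 0.046) and Nrp1 (0.171 ± 0.017), each as mean ± SD with n = 3. The count of Ramp2 is uncertain, as given above, and so is its place. The neighbours Ramp2 and Adm, Adm and Vegfc, and Calcrl and Kdr overlapped between samples and cannot be ordered. VEGF ligand RNA was thus abundant and Kdr RNA scarce in these cultures. With ICF, Vegfb (34.9 CPM per kb) and Vegfa (19.8 CPM per kb) stayed at the top. Adm dropped to 0.421 ± 0.096 CPM per kb. Nrp1, the lowest in control by merged exons, rose to 0.410 ± 0.159 CPM per kb. By merged exons Adm, Nrp1, Calcrl and Kdr formed a run in ICF samples in which each neighbour overlapped the next. The place of Nrp1 in both groups rests on that choice of length.

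**Figure D4:**
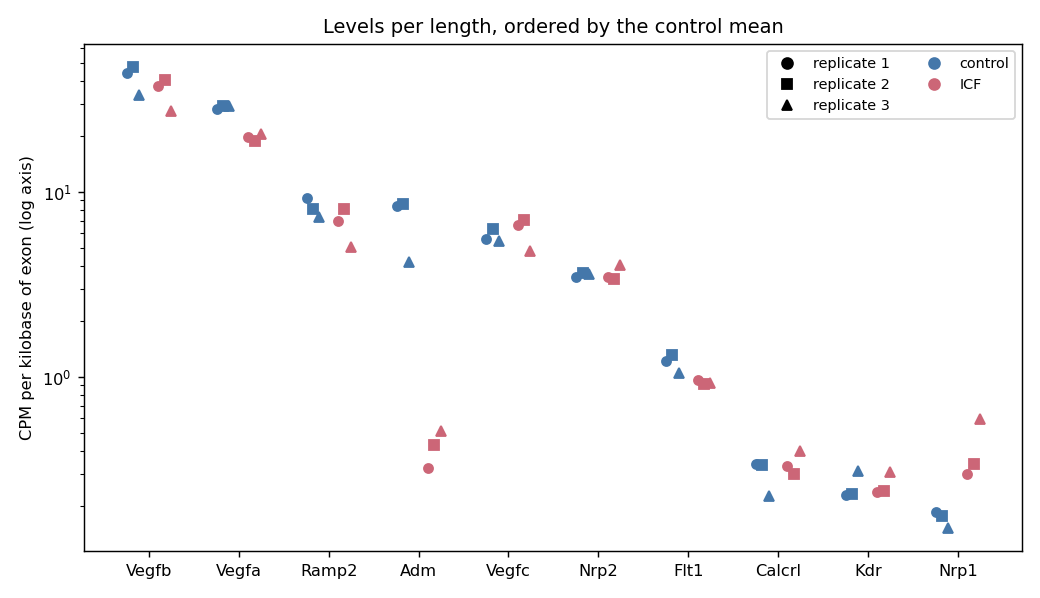
Level of each gene per length, in CPM per kilobase of merged exons on a log axis, for control and ICF samples (points are samples). Vegfb and Vegfa lead in both groups, and Adm moves from 7.07 to 0.421 CPM per kb among Nrp1 and Calcrl.

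The genes whose pattern over the 6 samples lay nearest to each called gene were found by the root mean square difference of log2 CPM after subtracting each gene's control mean, among the 11925 genes that averaged 100 or more counts. For Adm these were Ndufa4l2 (0.46), a mitochondrial protein, A2m (0.47), a protease inhibitor, and Stc1 (0.65), a secreted glycoprotein, all of which fell steeply with log2 fold changes of −4.41, −4.16 and −3.22. For Vegfa they included Atg10 (0.052) and H2-K1 (0.054). For Nrp1 they were Plk2 (0.17), a stress-responsive kinase, Synm (0.18), an intermediate filament protein, and Igdcc4 (0.21), and for Flt1 Mboat2 (0.040), Mettl9 (0.041) and Agfg1 (0.041). The distance includes the shift between groups, so neighbours share the direction and rough size of a gene's change by selection. A small distance is easier to reach for genes with a small change, so the distances of Adm and Vegfa are not comparable.

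The relatives of these genes were counted from named lists. The unpaired counts of called genes in this and the later lists stand beside 4.38% of all tested genes called lower and 3.47% called higher. Of 9 calcitonin family ligands and receptors beside Adm, Calcrl and Ramp2, 6 were tested, of which 2 were lower and 1 higher, with a median log2 fold change of −0.67. Calca, which encodes calcitonin and the calcitonin gene-related peptide, fell from 24.2 ± 2.11 to 12.8 ± 0.462 CPM (log2 fold change −0.91, SE 0.08, edgeR adjusted p = 0.0012). Adm2, the intermedin gene, whose peptide uses the same Calcrl receptors, fell from 5.52 ± 0.530 to 3.12 ± 0.400 CPM (log2 fold change −0.82, SE 0.13, edgeR adjusted p = 0.017). Calcr, the calcitonin receptor, rose from 0.803 ± 0.116 to 1.53 ± 0.0686 CPM (log2 fold change 0.92, edgeR adjusted p = 0.04). Ramp3, the other partner that gives Calcrl affinity for adrenomedullin, did not pass (log2 fold change −0.38, edgeR adjusted p = 0.24, and 0.0012 with the donor number as a block). When 1 library was left out at a time, no relative was called higher in 5 of the 6 fits (all but the one without ICF replicate 3), and the lower calls went to 1 without control replicate 1 or 2 or ICF replicate 1 or 2 and to 3 without control replicate 3.

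None of the 3 remaining VEGF family genes was called. Vegfd had a log2 fold change of 0.20, Pgf, which encodes placental growth factor, −0.09, and Flt4, the VEGF-C receptor of lymphatic endothelium, −0.31 (edgeR adjusted p = 0.22). Of 12 semaphorins and plexins that share the neuropilins, 1 was higher and none lower, with a median of 0.08. The higher gene was Plxna1, the signalling partner of the neuropilins for class 3 semaphorins (158.6 ± 4.49 against 186.4 ± 2.43 CPM, log2 fold change 0.23, edgeR adjusted p = 0.035), and no gene of the list was called higher without control replicate 1 or 2 or ICF replicate 1 or 2. Downstream of the VEGF receptors, 37 of 39 listed signalling genes were tested, of which 3 were lower and none higher, with a median of 0.02. The lower genes were the kinases Src (log2 fold change −0.55, edgeR adjusted p = 0.0018) and Map2k1 (−0.41, edgeR adjusted p = 0.0085) and the phospholipase Plcg1 (−0.32, edgeR adjusted p = 0.011). Leaving out 1 library at a time gave 1 to 4 lower genes, with 1 without control replicate 2 or ICF replicate 1. With the donor number as a block, 6 of these genes were called higher and 10 lower, beside 14.6% and 15.3% of all genes tested.

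Among 25 tested genes of other angiogenic and vasoactive ligands and receptors, 2 were higher and 1 lower, with a median log2 fold change of 0.12. Apln, which encodes the vasoactive peptide apelin, was lower (−1.06, edgeR adjusted p = 0.0049). The Notch ligand Jag1 (0.79, edgeR adjusted p = 0.0091) and the TGF-β co-receptor Eng (0.64, edgeR adjusted p = 0.0012) were higher. With 1 library left out, 1 to 3 genes of the list were higher (1 without control replicate 1 or 2) and 1 was lower in each fit. The block by donor number gave 7 higher and 3 lower, beside 14.6% and 15.3% of all genes tested.

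**Figure D5:**
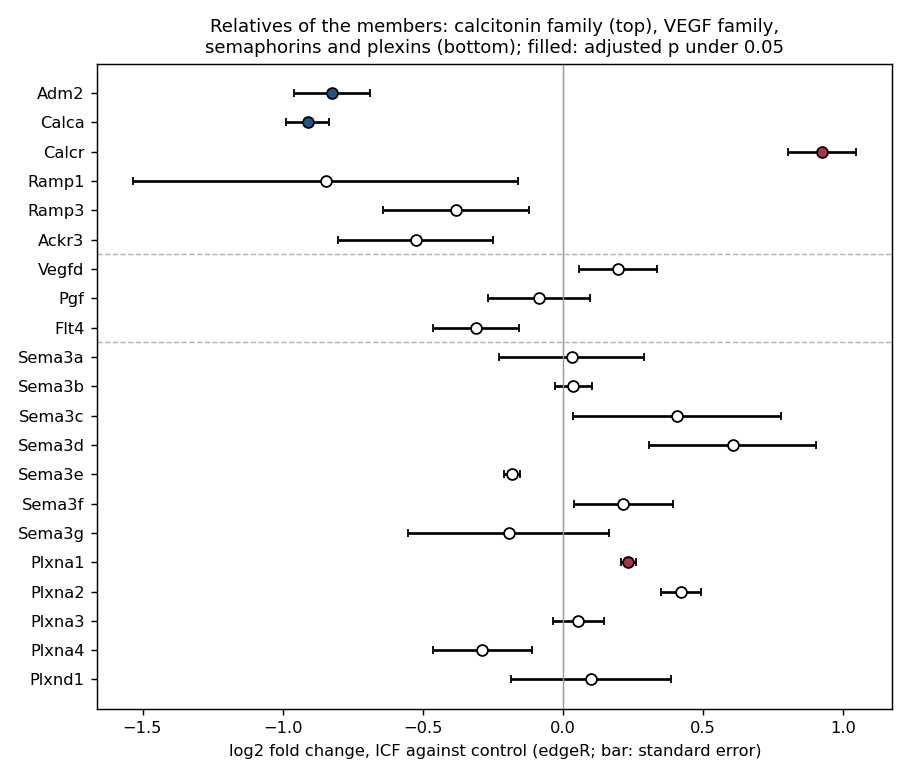
Log2 fold change of ICF over control, with bars of 1 SE, for each tested calcitonin relative (top), VEGF relative (middle) and semaphorin or plexin (bottom), where filled points passed edgeR's test at an adjusted p under 0.05. The calcitonin relatives have a median of −0.67, with Adm2 and Calca lower and Calcr higher, and the medians of the VEGF relatives and of the semaphorins and plexins are −0.09 and 0.08.

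Markers of endothelial cells, the main cell type that carries these receptors, were present at low levels. Of 17 listed markers 16 were tested, of which 2 were lower with ICF (Vwf, log2 fold change −1.24, edgeR adjusted p = 0.029, and Sox17, −0.34, edgeR adjusted p = 0.045) and none was higher, with a median of −0.09. Over all genes tested, the unpaired fit called 4.38% lower and 3.47% higher. Their summed level was 265 to 279 CPM in control and 245 to 267 CPM in ICF samples, and no defining marker was at 0 in all samples. No marker was called lower without control replicate 1 or 2, and 1 was without any other library. With the donor number as a block, 6 were lower and 1 was higher, beside 15.3% and 14.6% of all genes tested. The higher gene was Cdh5, the adherens junction protein of endothelium, named here after its values were seen (log2 fold change 0.37, edgeR adjusted p = 0.00029 with the block and 0.052 without). Sox17 also marks endoderm. The part of endothelial cells in the values of the ligands and receptors was not tested.

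Some markers of other cells that can carry neuropilins also differed between the groups. Of 6 tested fibroblast and feeder markers, the collagen genes Col1a1 (log2 fold change 0.75) and Col3a1 (0.73) were higher and none was lower, and the summed level of the list was 38.7 to 66.1 CPM in control and 67.0 to 89.9 CPM in ICF samples. No marker of this list was called higher without control replicate 1, ICF replicate 1 or ICF replicate 2, and 1 was without any other library. Of 5 tested pericyte and mural markers, Cspg4 was higher and none was lower, with sums of 59.6 to 62.1 CPM in control and 65.9 to 91.8 CPM in ICF samples, and the median log2 fold change of the list went from 0.56 to 0.10 without ICF replicate 3. Of 8 neural markers, Stmn2 and Elavl3 were lower and none was higher, with sums of 314 to 349 CPM in control and 248 to 293 CPM in ICF samples. The neural list was mixed, with 4 of the 8 above 0 and a median log2 fold change of 0.00. In the fit with the donor number as a block 3 were higher and 3 lower, beside 14.6% and 15.3% of all genes. Neither the mural nor the neural list had a call without control replicate 1 or 2 or ICF replicate 1 or 2. For all 3 lists the sums did not overlap between groups, higher with ICF for the fibroblast and mural lists and lower for the neural list. This was not particular to them, since the sums of the calcitonin relatives and of the semaphorins and plexins also did not overlap. Of all genes tested, 15.7% had every ICF sample below every control and 15.6% had every ICF sample above. None of the 3 lists was at 0 for a defining marker in all samples. The part of these cells in the level of Nrp1 was not tested.

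A list of 10 genes known to respond to low oxygen, which held Ndufa4l2 but neither Adm nor Vegfa, had 10 of 10 called lower and a median log2 fold change of −1.64, and 9 or 10 were called lower with any 1 library left out. Its summed level was 3408 to 4782 CPM in control and 1376 to 1450 CPM in ICF samples. The list was drawn up with results of these samples known and is not independent evidence of a direction. Its part in the levels of Adm and Vegfa was not tested.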

How the data were processed

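Total RNA of 3 control and 3 ICF samples was made into strand-specific libraries and sequenced as single reads. The authors trimmed the reads with Trimmomatic, aligned with HISAT2 and obtained gene counts with HTSeq. The deposited files hold these raw counts, 1 value per Ensembl gene. The submitters' processing notes name the builds GRCm38 and hg38 and bcl2fastq 2.19. The annotation and the strand setting of the counting are not given in the sources used here, and 29.5% to 31.3% of alignments were not unique. Groups came from the sample labels. Symbols and positions came from GENCODE M21 on GRCm38, which named 50376 of the 50686 identifiers.

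Counts were tested with edgeR 4.0.16 in R 4.3.3 (TMM, filterByExpr, quasi-likelihood test, Benjamini-Hochberg over 16729 genes), which called 580 genes higher and 733 lower. DESeq2 1.42.0, another scaling, other count filters, the donor number as a block and leaving out libraries were alternatives. The donor numbers pair the samples by label, and deviations from the group means correlated at 0.36, 0.36 and 0.66 between same-numbered samples over 11925 genes. Control replicate 1 with ICF replicate 2 (0.55) and control replicate 2 with ICF replicate 1 (0.40) correlated more strongly than the same-numbered pairs 1 and 2. The data thus separate number 3 from 1 and 2, and the pairing of 1 and 2 rests on the labels. The fits with the donor number as a block use that pairing. The study's methods state independent experiments, and p-values measure the spread between these samples. The fit was tested on simulated data. Ratios used counts plus 0.5. The 10 genes and the gene lists were chosen with earlier results of these data known. Named genes were the 10 members, called genes and the 2 most abundant genes of each list, and the 3 genes nearest in pattern to each member. 1 gene that this rule names is not reported here.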

Additional observations from a re-analysis of the deposited data

How the results depend on the processing

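Adm, Vegfa and Nrp1 kept their direction under all alternatives, and Adm and Vegfa kept their calls. With DESeq2, 943 genes were higher and 1109 lower, and Flt1 was called (log2 fold change −0.35). With the donor number as a replicate block, 2445 genes were higher and 2561 lower, and Ramp2 (−0.31), Vegfb (−0.26) and Flt1 (−0.35) were called. DESeq2 with the block gave 1457 and 1662 genes and called the same members, at −0.32, −0.26 and −0.34. The block changed no other call of a member. Leaving out 1 library at a time gave 85 to 724 higher and 215 to 928 lower genes. The log2 fold change then ranged from 0.90 to 1.44 for Nrp1, from −0.43 to −0.28 for Flt1, and through 0 for Kdr (−0.10 to 0.17), Vegfc (−0.0078 to 0.25) and Nrp2 (−0.055 to 0.073); Calcrl stayed between 0.02 and 0.28, Ramp2 between −0.45 and −0.13, and Vegfb between −0.39 and −0.10. Without replicate 3 of both groups, 2466 genes were higher and 2627 lower, Vegfb (−0.24) and Flt1 (−0.42) were called, Nrp1 was at 0.82, and Calcrl (−0.092) and Nrp2 (−0.057) turned. With ICF replicate 3 divided by 4, Kdr turned to −0.042. The cause was not tested. Counts of 18 to 24 reads for Adm with ICF and of 32 to 56 for Calcrl limit the precision of their folds. In ICF replicate 3 the counts of both genes (24 and 56) are multiples of 4. Intervals cover only the spread between 3 samples.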

Other observations

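None of the 4 tested blood cell markers was called with ICF, and their list summed to 123 to 137 CPM in control and 118 to 128 CPM in ICF samples. The same held for the 8 pluripotent cell markers (3033 to 3700 and 2813 to 3373 CPM) and the 8 immature mesenchymal markers (352 to 390 and 388 to 402 CPM) in the unpaired edgeR fit. With the donor number as a block, 3 pluripotent cell markers (Dppa5a, Klf4 and Utf1) were lower and 1 immature mesenchymal marker (Twist1) was higher, all named after their values were seen. In that fit 15.3% of all genes were lower and 14.6% higher.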
